A study of Mus musculus with 4 samples.

Results

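The mast cell proteases and receptors described here are 10 mouse genes: the chymase-type proteases Mcpt1, Mcpt2, Mcpt4 and Cma1, the basophil protease Mcpt8, the tryptases Tpsb2 and Tpsab1, the carboxypeptidase Cpa3, and the receptors Kit and Fcer1a. They were picked because Mcpt1 was bright in CD44+ cells of this series, so their differences between CD44+ and CD44- cells are given as a description with no test of the group. Every probe on the array whose accession maps to one of the 10 symbols was taken. This gave 11 probes for 9 genes among 41174 probes in all, and no probe matched Tpsab1, which is not analysed here. Of the 9 genes, 7 entered the fit over 21045 genes because they were well above background (the scanner software's own flag) on both arrays of at least 1 group, and all 7 were so on all 4 arrays. Cpa3 and Mcpt8 did not enter it.

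The cells came from gastric tumours of K19-Wnt1/C2mE mice aged 30 weeks, digested for 3 h. Both groups carry the same transgenes, in which the Krt19 promoter directs Wnt1, and Ptgs2 with Ptges (the C2mE part), to gastric epithelium, and no sample without them was analysed here. Cells negative for lineage markers were parted by CD44, a surface receptor for hyaluronan, into 2 CD44+ and 2 CD44- samples. The lineage markers are not given in the sources used here, so it is unknown whether mast cells were to be removed by them. The labels do not say whether the samples of a group are separate mice. The p-values and standard errors therefore rest on the spread of 2 samples per group, which the fit draws toward the spread over all genes. Either could be technical spread. Each sample started from 25 ng of total RNA, which was amplified before labelling with Cy3.

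Mast cells store proteases in granules, bound to the proteoglycan serglycin, and release them with histamine when IgE on the receptor FcεRI is cross-linked. In mice, Mcpt1 and Mcpt2 are the beta-chymases of mucosal mast cells, which sit in the gut epithelium, while Mcpt4, Cma1 (also called Mcpt5), Tpsb2 (Mcpt6) and Cpa3 are typical of connective tissue mast cells. KIT, the receptor for stem cell factor, keeps mast cells alive, and Fcer1a encodes the IgE-binding chain of FcεRI.

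The chymase genes lie together on chromosome 14. In the RefSeq gene table Mcpt1 and Mcpt2 are next to each other, followed by Mcpt9, Mcpt4 and Mcpt8, with Cma1 at the other end of this stretch. Promoters are shown for the neighbours on which the results turn: Mcpt1, Mcpt4 and Cma1, which were brighter in both CD44+ samples, and Mcpt8, which was not well above background. Each is the 250 bases before the annotated start, from RefSeq (GRCm38.p6), read 5′ to 3′ on the gene's strand. Capitals mark the GATA letters TGATAA. Of the 10 genes, 7 have a promoter in the table used.
Mcpt1, chr14:56017714-56017963 (+): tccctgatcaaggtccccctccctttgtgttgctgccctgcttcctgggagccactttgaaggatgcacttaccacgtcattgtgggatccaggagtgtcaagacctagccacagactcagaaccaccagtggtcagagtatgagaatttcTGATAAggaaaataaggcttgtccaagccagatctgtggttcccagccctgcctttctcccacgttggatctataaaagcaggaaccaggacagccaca
Mcpt4, chr14:56062311-56062560 (-): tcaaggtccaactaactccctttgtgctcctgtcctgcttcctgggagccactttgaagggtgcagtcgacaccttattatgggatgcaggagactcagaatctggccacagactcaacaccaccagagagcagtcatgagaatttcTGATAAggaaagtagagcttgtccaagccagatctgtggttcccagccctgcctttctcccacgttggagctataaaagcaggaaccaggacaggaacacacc
Cma1, chr14:55944676-55944925 (-): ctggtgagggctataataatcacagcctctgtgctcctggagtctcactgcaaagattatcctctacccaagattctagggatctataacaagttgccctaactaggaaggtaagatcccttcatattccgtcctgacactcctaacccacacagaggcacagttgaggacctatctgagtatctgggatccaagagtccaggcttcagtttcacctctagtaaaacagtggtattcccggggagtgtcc
Mcpt8, chr14:56085198-56085447 (-): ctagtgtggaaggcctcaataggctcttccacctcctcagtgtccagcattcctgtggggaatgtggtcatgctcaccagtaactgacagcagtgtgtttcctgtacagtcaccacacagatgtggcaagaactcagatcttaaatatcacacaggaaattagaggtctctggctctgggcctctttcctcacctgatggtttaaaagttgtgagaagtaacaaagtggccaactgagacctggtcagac

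The promoters of Mcpt1 and Mcpt4 are near copies of each other. They share 209 of 242 aligned bases, with 16 gap columns, which makes 81.0% of all alignment columns. Their longest identical run is 53 bases, from 83 to 31 bases before the start of Mcpt1 and from 87 to 35 before that of Mcpt4. All other pairs among the 7 promoters lay between 41.5% and 51.2%, among them Cma1 (48.5% with Mcpt1, 49.3% with Mcpt4) and Mcpt8 (51.2% with Mcpt1, 50.4% with Mcpt4). Cpa3 and Fcer1a, which encode unrelated proteins, stood at 48.6%.

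The promoters were searched on both strands for the GATA letters TGATAA and AGATAA and for the E-box CATGTG, the letters that GATA factors and MITF are known to bind. TGATAA was found in Mcpt1, 99 to 94 bases before the start, and in Mcpt4, 103 to 98 bases before it. AGATAA was found in Cpa3, 46 to 41 bases before the start, and on the opposite strand in Fcer1a, 92 to 87 bases before it. CATGTG was found in Fcer1a alone of the 7, on the opposite strand, 208 to 203 bases before the start. None of these letters stood in the windows of Cma1, Kit or Mcpt8. Such matches are common: TGATAA stands in 7.94% of 32851 promoters of this length, AGATAA in 9.99%, either of them in 16.6% and CATGTG in 12.3%.

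After scaling, the 4 chymases were brighter in both CD44+ samples than in both CD44- samples, while the tryptase Tpsb2 and the receptors Kit and Fcer1a overlapped. Mcpt1 showed the widest gap between groups, at 7.67-fold. Levels below are processed signals (background-subtracted brightness) and, where stated, log2 levels relative to the 75th percentile of the array. Single values are compared only with the same probe on other arrays. Sums over a list, and shares of such sums, add different probes, which may differ in brightness per transcript. In sorted bulk samples a lower signal from fewer mast cells and one from less RNA per cell cannot be told apart.

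The first CD44+ array was the dimmest of the 4, so its unscaled signals run low. Its 75th percentile was 244, while the other 3 arrays reached 406 to 527, and 53.1% of its spots were well above background where the others had 65.6% to 69.6%. No spot was saturated. Cd44 itself, the sort marker, had log2 levels of 6.31 and 6.54 in CD44+ and 4.26 and 5.11 in CD44- cells (adjusted p = 0.199). Replicates differed by a median of 0.519 on the log2 scale in CD44+ and 0.491 in CD44- cells, and 18.8% and 20.2% of the genes tested differed over 2-fold between the replicates of a group.

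Mcpt1, the beta-chymase of mucosal mast cells, had processed signals of 703 and 1945 in the CD44+ samples and 190 and 219 in the CD44- samples. Both CD44+ samples were high and the CD44- samples were close to each other. Relative to the array's 75th percentile, the log2 levels were 1.53 and 1.98 against -1.10 and -1.27, a difference of 2.94 ± 0.45 (SE, n = 2 per group). The lower CD44+ sample stood 6.18-fold above the higher CD44- sample, and replicates differed by 0.45 and 0.17 in size on the log2 scale. Of the 7 genes in the fit, Mcpt1 was the 1 with an adjusted p under 0.05 (limma, Benjamini-Hochberg over all genes, 0.0478), where 0.399% of all genes tested were called and 0.0238% were called higher. Since the genes were chosen from this contrast, that count supports nothing. Mcpt1 lost the call in 4 of 14 other ways of processing the data, among them leaving out either CD44+ sample (adjusted p 0.227 and 0.228). Calls also changed for its relatives: Mcpt2 (adjusted p = 0.255) and Mcpt4 (adjusted p = 0.155) missed the threshold as analysed and passed it in 5 and 4 of 14 alternatives, among them scaling to the median (adjusted p 0.0397 and 0.0430).

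Mcpt2, its neighbour and close relative, had processed signals of 435 and 799 in CD44+ cells and 308 and 74.1 in CD44- cells. The 2 CD44- samples differed widely, and the first of them was the brighter. In log2 levels this was 0.83 and 0.70 against -0.40 and -2.83, and the difference was 2.38 ± 0.75 (SE, n = 2 per group), or 5.20-fold. The gap of 2.43 between the CD44- replicates was about as large as the difference between groups, and the lower CD44+ sample exceeded the higher CD44- sample by 2.14-fold. Without the second CD44- sample the difference was 1.16, and without the first it was 3.59.

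Mcpt4, the chymase of connective tissue mast cells, was read by 2 probes. The brighter gave 1168 and 4014 in CD44+ cells and 607 and 894 in CD44- cells. Both CD44+ samples lay above both CD44- samples, by at least 2.82-fold after scaling, and the log2 difference was 1.97 ± 0.48 (SE, n = 2 per group), or 3.93-fold. The dimmer probe gave 86.9 and 444 against 126 and 161. After scaling its CD44+ levels (-1.49 and -0.15) were both above the CD44- levels (-1.68 and -1.71), but the first of them by 1.15-fold only, and the difference was 0.88. The 2 probes thus had the same order of groups and differed in size.

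Cma1, the alpha-chymase, also had 2 probes. The brighter gave 115 and 253 in CD44+ cells and 94.6 and 73.7 in CD44- cells. The groups did not overlap after scaling, with log2 levels of -1.08 and -0.96 against -2.10 and -2.84 and a difference of 1.45 ± 0.47 (SE, n = 2 per group), or 2.73-fold. The dimmer probe gave 6.85 and 17.8 against 2.92 and 4.21 and was well above background only on the second CD44+ array, so no fold is given for it. Mcpt1, Mcpt2, Mcpt4 and Cma1 were the 4 of 7 genes whose CD44+ samples both exceeded both CD44- samples, a state shared by 22.4% of all genes tested. That share is background for a set picked from the same contrast. Whether the probes of these related chymases read each other's transcripts was not tested.

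**Figure D1:**
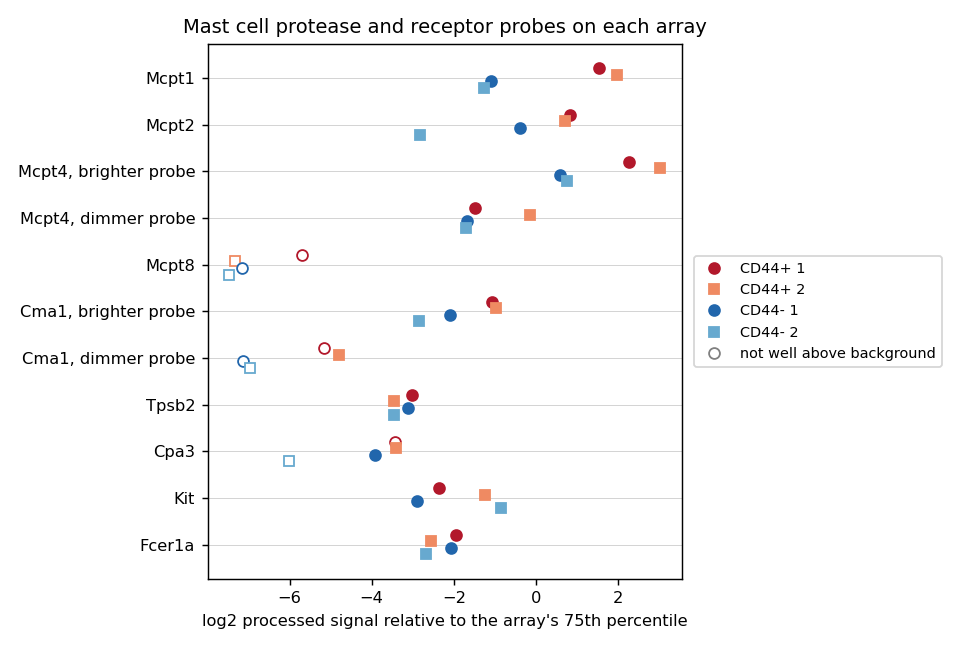
Log2 level of the 11 probes relative to the array's 75th percentile (x axis) for each probe (y axis) on the 2 CD44+ and 2 CD44- arrays, 1 point per array, open where not well above background. Mcpt1, Mcpt2, Mcpt4 and Cma1 separate the groups, while Kit ranges from -2.89 to -0.85 with both extremes in CD44- cells.

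Mcpt8, which marks basophils rather than mast cells, gave 4.66 and 3.08 in CD44+ cells and 2.84 and 2.98 in CD44- cells and was well above background on 0 of 4 arrays. For this gene the arrays give only an upper bound.

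The tryptase Tpsb2 gave 30.1 and 45.1 in CD44+ cells and 46.8 and 47.9 in CD44- cells, well above background throughout. The unscaled signal was lowest on the first CD44+ array, while after scaling that array had the highest level of the 4, and the groups overlapped. The log2 levels were -3.02 and -3.45 against -3.12 and -3.46, a difference of 0.05 ± 0.46 (SE, n = 2 per group).

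Cpa3, the carboxypeptidase stored beside the chymases, gave 22.6 and 46.1 in CD44+ cells and 26.7 and 8.11 in CD44- cells. It was well above background on 2 of 4 arrays, the second CD44+ and the first CD44-, hence on 1 array of each group. It was not tested, and no fold is given.

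Kit and Fcer1a, the receptors that define mast cells on their surface, did not follow the chymases. Kit gave processed signals of 47.2 and 208 in CD44+ cells and 54.9 and 292 in CD44- cells, so each group held 1 low and 1 high sample. The log2 levels were -2.37 and -1.25 against -2.89 and -0.85, and the difference of 0.06 ± 0.73 (SE, n = 2 per group) was small beside the replicate gaps of 1.12 and 2.04. The Kit probe is printed on the array in 10 copies, which gives the error between spots of 1 array. The spots had a CV of 12.0%, 4.80%, 6.59% and 4.40% in the order of samples above, over 9 to 10 spots. Error from amplification, from labelling or between arrays is not in these values. On the CD44- arrays the spots ran from 50.1 to 62.6 and from 275 to 313, before scaling.

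Fcer1a gave 63.6 and 83.5 in CD44+ cells and 96.2 and 82.5 in CD44- cells. As with Tpsb2, the first CD44+ array was dimmest before and brightest after scaling. The log2 levels were -1.94 and -2.56 against -2.08 and -2.67, the groups overlapped, and the difference was 0.13 ± 0.48 (SE, n = 2 per group). For Tpsb2, Kit and Fcer1a the sign of the difference turned when single samples were left out, so no direction is given for them.

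Over the 7 genes in the fit, the median log2 difference was 1.45, and 7 of 7 were above 0, against a median of 0.16 and 60.6% above 0 over all genes tested. These values describe genes taken from this contrast, and the sign of Tpsb2, Kit and Fcer1a depends on which samples are kept. Summed over the probes used, the scaled signal of these genes was 10.6 and 15.0 times the array's 75th percentile in CD44+ cells and 3.51 and 3.22 times in CD44- cells. Mcpt1 and Mcpt4 supplied most of that sum in CD44+ cells, so it follows those probes rather than the list.

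The rest of the mast cell programme was described from 6 lists of 74 genes: IgE receptor signalling, KIT signalling, transcription factors, granule and lipid mediators, surface receptors, and growth cytokines. Of these, 52 were tested, 26 had differences above 0 and 26 below, and the median was -0.01. Tph1 was the 1 called gene, lower in CD44+ cells, and none was called higher by limma at an adjusted p under 0.05. At an unadjusted p under 0.05, 1 was higher and 14 were lower, where 2.86% and 7.9% of all genes tested were. Over all genes 5 were called higher and 79 lower (0.375%), and scaling each array to its median gave 121 higher and 627 lower, so the share called higher rose from 5.95% to 16.2%.

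The other chains of FcεRI were measured beside Fcer1a. Ms4a2, the beta chain, gave 6.90 and 12.4 in CD44+ cells and 12.1 and 14.8 in CD44- cells and was well above background on no array. Fcer1g, the gamma chain, which other Fc receptors of myeloid cells share, gave 233 and 242 against 226 and 216, with a difference of 0.52 ± 0.51 (adjusted p = 0.804). Of the 15 genes of IgE receptor signalling, 9 were tested, none was called, and the median difference was 0.07. Of the kinases that start the signal, Lyn lay near 0 (0.11 ± 0.46). Syk was higher on both CD44+ arrays (0.55 ± 0.45, adjusted p = 0.783), as were 22.4% of all genes tested. Inpp5d (SHIP1), a phosphatase that restrains the receptor, gave 11.0 and 43.8 in CD44+ and 139 and 618 in CD44- cells (-3.32 ± 0.67, adjusted p = 0.106). Vav1, an exchange factor of blood cells, gave 4.64 and 25.4 against 78.4 and 214 (-3.16 ± 0.62, adjusted p = 0.105). Both lay below 0 without overlap, a state shared by 17.2% of all genes tested. The adaptors Lcp2 (-2.77 ± 1.18, adjusted p = 0.452) and Lat (-1.36 ± 0.62, adjusted p = 0.511) did so too. These 4 genes were not well above background on the first CD44+ array, so the sizes of their differences are uncertain: with normexp background correction they were -1.67, -0.99, -0.94 and -0.14 in the order named. Without the second CD44- sample, Lcp2 was at -0.66.

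For KIT, the ligand was measured too. Kitl, stem cell factor, gave 679 and 851 in CD44+ cells and 569 and 554 in CD44- cells with the brighter of its 2 probes. Both CD44+ samples were the higher, and the difference was 0.85 ± 0.48 (adjusted p = 0.653), but 0.16 with the mean of both probes. Of 11 genes of this list 10 were tested, none passed, and 4 lay above 0 and 6 below (median -0.11). The phosphatase Ptpn6 (-0.96 ± 0.47), Pik3r1 (-1.09 ± 0.58) and Stat5a (-0.78 ± 0.50) lay below 0. With the mean of their probes, Ptpn6 was at -0.35 and Pik3r1 at -0.55.

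Among 8 transcription factors tested none was called. Gata1 gave 25.4 and 25.1 in CD44+ cells and 23.4 and 20.9 in CD44- cells (0.61 ± 0.52). Gata2, the factor that mast cells depend on, gave 4.70 and 22.3 against 15.2 and 424, so that 1 CD44- sample stood far above the other 3 (-2.56 ± 1.23, adjusted p = 0.545). Without that sample the difference was -0.34. Mitf, which drives protease genes in mast cells, gave 34.5 and 18.3 against 13.7 and 13.9 (1.28 ± 0.65), and without the first CD44+ sample the difference was 0.32. Fli1 (-2.55 ± 0.99, adjusted p = 0.382) and Meis1 (-1.84 ± 0.52, adjusted p = 0.206), both factors of blood and vessel cells, lay below 0. Gata2, Fli1 and Meis1 were not well above background on the first CD44+ array, so these sizes are uncertain, and Fli1 was at -0.85 without the second CD44- sample.

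The granule and lipid mediators lay on the other side of 0 from the chymases. Of 11 genes 9 were tested, 8 lay below 0 without overlap between the groups, and the median was -3.09. Such a non-overlap downward was seen in 17.2% of all genes tested. Tph1, which starts serotonin synthesis, gave 40.8 and 37.7 in CD44+ cells and 1334 and 1535 in CD44- cells. Both CD44- samples were high, and the difference was -4.77 ± 0.52 (27.4-fold, adjusted p = 0.0162) with the brighter of its 2 probes. With the mean of its probes the difference was -3.53, and Tph1 was not called (adjusted p = 0.0608). It was called in 10 of 14 alternatives, with adjusted p up to 0.175.

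Hdc, the histamine-forming enzyme, gave 16.7 and 91.0 against 585 and 3765 (-4.83 ± 0.81, adjusted p = 0.0631), the first of these not well above background. Slc18a2, the transporter that loads amines into granules, gave 33.3 and 55.3 against 208 and 1134 (-3.09 ± 0.68, adjusted p = 0.125). With the mean of its probes the difference was -1.85. Srgn, serglycin, which holds the proteases in the granule, gave 247 and 598 against 1533 and 14330 (-3.19 ± 0.84, adjusted p = 0.179). For all 3 the second CD44- sample was the brightest of the 4, and without it the differences were -3.68, -2.05 and -1.77. Ndst2, which sulphates the heparin of mast cells, was near 0 (0.10 ± 0.46).

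Of the 9 mediator genes tested, 5 also stand in the lists of tuft cell or enteroendocrine genes: Hdc, Slc18a2 and Tph1 in the latter, and Alox5ap and Ptgs1 in the former. Most other genes of those lists were low in the same samples; the exceptions were Pou2f3, the tuft cell factor, which lay higher on both CD44+ arrays (0.54 ± 0.49, adjusted p = 0.793) but not well above background on the first, and the hormone gene Gast, whose groups overlapped. Of 8 enteroendocrine genes 5 were called lower in CD44+ cells (median -5.62), where 0.375% of all genes tested were called lower. The summed scaled signal of the 8 was 1.43 and 4.04 in CD44+ against 304 and 713 in CD44- cells. Of 8 tuft cell genes tested, 2 were called lower (Siglecf, at least 4.20-fold, adjusted p = 0.0240, and Il25, at least 2.77-fold, adjusted p = 0.0422). Neither was well above background on a CD44+ array, so both entered the fit through the CD44- samples alone. Their p-values thus rest on dim CD44+ values. The part of tuft and enteroendocrine cells in the mediators' differences was not tested.

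**Figure D2:**
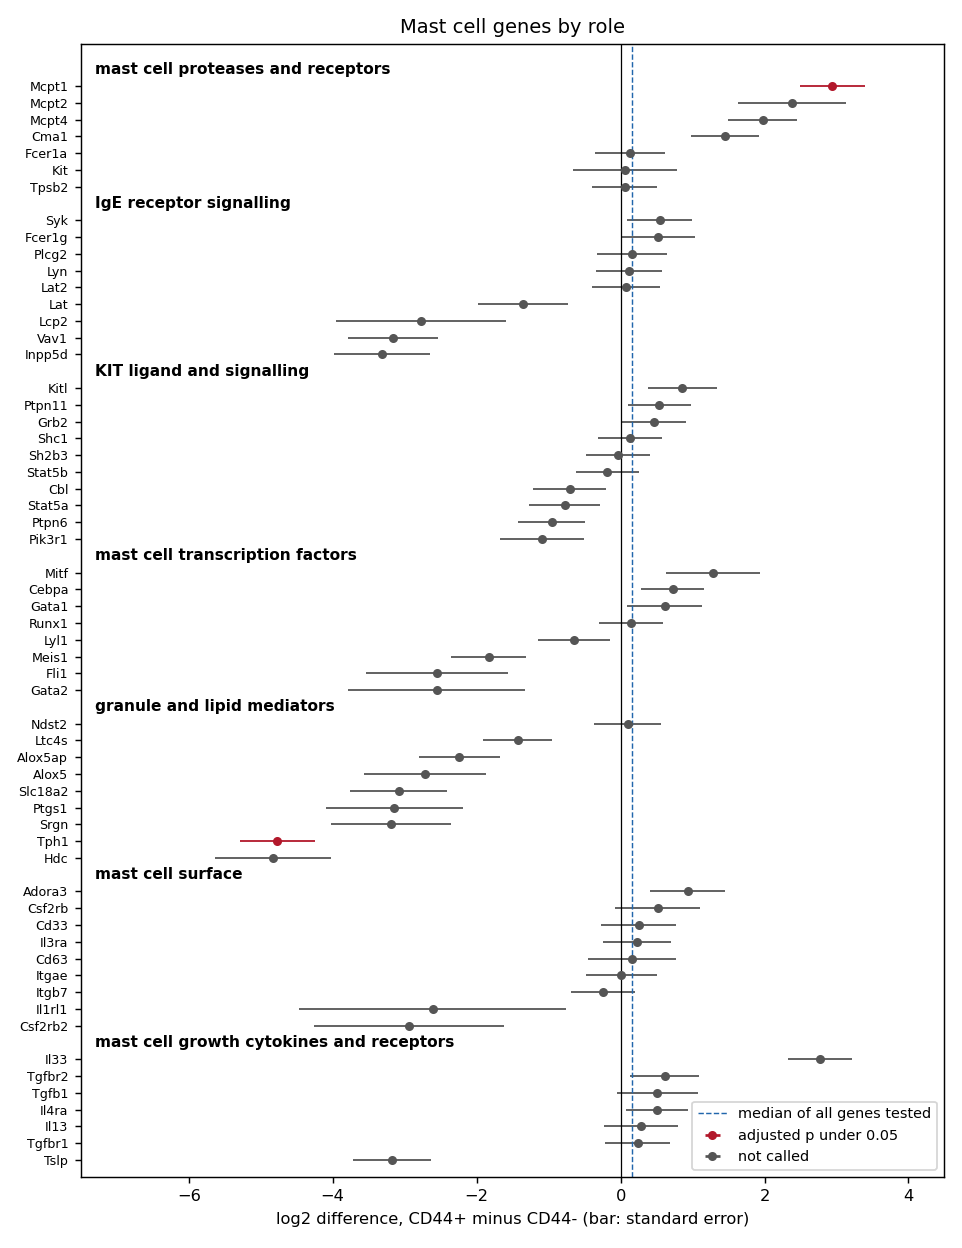
Log2 difference, CD44+ minus CD44- (x axis), of the genes tested in the mast cell lists grouped by role, 1 point per gene with bars of 1 SE, and the median of all genes (0.16). The chymases stand to the right, the granule and lipid mediators to the left (median -3.09), while IgE receptor signalling (median 0.07) and KIT signalling (median -0.11) lie on both sides of 0, down to -3.32 for Inpp5d.

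Surface receptors showed no call among 9 tested. Il1rl1, which encodes ST2, the receptor of interleukin-33, gave 10.3 and 1540 in CD44+ cells and 252 and 4177 in CD44- cells. Each group held a low and a high sample, and the first CD44+ value was not well above background. The difference was -2.61 ± 1.85 (adjusted p = 0.760), and leaving out single samples moved it between -5.71 and 0.49. Il1rl1 has 3 probes. The difference was -1.635 with the mean of those that passed the filter, and -0.66 with a probe well above background on all 4 arrays. Adora3, the adenosine receptor of mouse mast cells, lay at 0.93 ± 0.52. Csf2rb2, the mouse interleukin-3 receptor chain, gave 4.60 and 17.8 in CD44+ cells, not well above background, and 15.0 and 574 in CD44- cells (adjusted p = 0.491). It was high on the second CD44- array alone, and without that array the difference was -0.50. Mrgprb1 was well above background on no array, and Mrgprb2, the peptide receptor of connective tissue mast cells, on the second CD44+ array alone.

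Interleukin-33 itself was among the closest matches to Mcpt1. Il33 gave 7689 and 16010 in CD44+ cells and 1689 and 2775 in CD44- cells. Both CD44+ samples were the higher, and the difference was 2.77 ± 0.44, or 6.84-fold, with an adjusted p of 0.0552 that missed the threshold. It was called in 9 of 14 alternatives (adjusted p 3.13e-06 to 0.320). Tslp, another epithelial cytokine, was not well above background in CD44+ cells (4.67 and 9.86), so it entered the fit through the CD44- samples alone. It gave 113 and 59.4 in CD44- cells, at least 3.42-fold lower in CD44+ cells as analysed (adjusted p = 0.0694). Its log2 difference was -3.18 as analysed and -0.75 with normexp background correction. The T-cell cytokines Il3 and Il9, which support mast cell growth, were well above background on no array.

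By the likeness of log2 levels centred on each gene's mean over 4 arrays, Mcpt1 was nearest to Uts2 (root mean square difference 0.129), Il33 (0.246), Lipt2 (0.331), Pbk (0.334), Pmch (0.338) and Il1f6 (0.348) among 11659 genes. Uts2 and Pmch encode peptide hormones, Pbk a mitotic kinase and Il1f6 a cytokine of the interleukin-1 family. These 6 genes were picked for likeness to Mcpt1, so by that choice each was higher on both CD44+ arrays than on either CD44- array. Such a non-overlap upward was seen in 22.4% of all genes tested. Kit had other neighbours: Col16a1 (0.0349), Rhoj (0.0819), Spry1 (0.106), Ikbip (0.107), Cdr2l (0.146) and Cxcr4 (0.146). Col16a1 is a collagen and Cxcr4 a chemokine receptor. Picked for likeness to Kit, these 6 genes were by that choice high on the second array of each group and low on the first. With 4 arrays, a likeness is a description of these samples.

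Genes that neighbour the chymases on the chromosome were mostly dim. Mcpt9, between Mcpt2 and Mcpt4, gave 4.73 and 2.97 in CD44+ cells and 2.82 and 2.92 in CD44- cells, not well above background on any array. Ctsg, cathepsin G, a protease of neutrophils and some mast cells, gave 56.1 and 66.2 against 46.8 and 55.3 (0.68 ± 0.48, adjusted p = 0.755). Of the 10 neighbours listed, 2 were tested and none was called, the other being Gzmd at 0.02 ± 0.49.

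The markers of other cells in the sort were set beside the chymases. Of basophil genes, Prss34 gave 148 and 202 in CD44+ cells and 189 and 82.9 in CD44- cells (0.88 ± 0.60, adjusted p = 0.749), and Mcpt8 was not well above background. The 10 pan-leukocyte genes summed to 7.33 and 7.37 times the 75th percentile in CD44+ and 8.51 and 7.14 times in CD44- cells, so this sum overlapped between the groups, but Lcp1 alone made 35.7% to 65.4% of it. Ptprc, the leukocyte antigen CD45, gave 40.6 and 64.2 against 75.2 and 153 (-0.66 ± 0.47, adjusted p = 0.765). Cd53, a tetraspanin of leukocytes, went the other way: 66.0 and 132 against 5.99 and 13.2, at least 9.06-fold higher in CD44+ cells (adjusted p = 0.0240). It was not well above background on a CD44- array and entered the fit through the CD44+ samples alone. Its p-value thus rests on dim CD44- values. Cd53 was the 1 called leukocyte gene of 10, where 0.0238% of all genes tested were called higher. Of the 10, 5 lay above 0 and 5 below. Cd53 had a log2 difference of 1.64 with normexp background correction against 3.81 as analysed, so the fold limit above holds only as analysed. Cd53 was called in 9 of 13 alternatives. Arhgdib, another gene of blood cells, lay lower in CD44+ cells, at 32.1 and 156 against 572 and 1215 (-3.14 ± 0.57, adjusted p = 0.0828), and was called in 8 of 14 alternatives. Tyrobp (-1.74 ± 0.53, adjusted p = 0.241) and Laptm5 (-1.48 ± 0.57, adjusted p = 0.381) also lay below 0 without overlap, both not well above background on the first CD44+ array. Such a non-overlap downward was seen in 17.2% of all genes tested. At an unadjusted p under 0.05, 1 leukocyte gene was higher and 3 were lower, where 2.86% and 7.9% of all genes tested were.

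Macrophage genes summed to 62.4 and 60.5 in CD44+ and 37.8 and 48.0 in CD44- cells, and 6 were tested with none called (median 0.25). Cd14, a receptor that epithelial cells can also express, made 50.5% to 96.6% of that sum (1.29 ± 0.45, adjusted p = 0.316). The lysozyme gene Lyz2 (-2.30 ± 0.88, adjusted p = 0.368) and the complement gene C1qc (at least 1.67-fold lower in CD44+ cells, adjusted p = 0.162) lay the other way without overlap. Of all genes tested, 17.2% did so. T, NK and B cell genes summed to 1.36 and 0.81 against 0.97 and 0.71 times the 75th percentile, and those sums overlapped. Of 11 neutrophil and eosinophil genes 5 were tested, and Siglecf, named above, was called lower, where 0.375% of all genes tested were. S100a9, a neutrophil protein, gave 37.9 and 85.6 in CD44+ and 1637 and 444 in CD44- cells (-3.49 ± 0.71, adjusted p = 0.110), while Mpo, a neutrophil granule enzyme, overlapped (0.25 ± 0.57).

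The 6 epithelial genes, all well above background on 4 arrays, lay above 0 (median 0.53) and none was called. Of these, 3 were higher on both CD44+ arrays, as were 22.4% of all genes tested. They were Epcam (1.66 ± 0.46, adjusted p = 0.199), Cdh1 (0.97 ± 0.54, adjusted p = 0.657) and Krt18 (0.50 ± 0.47, adjusted p = 0.797). Krt8, Krt19 and Cldn18 overlapped between the groups. Fibroblast genes lay below 0 in 7 of 7 (median -3.26), with a summed level of 7.74 and 42.1 in CD44+ against 67.9 and 451 in CD44- cells, and 4 of 5 endothelial genes lay below 0 (median -4.45). For both, the second CD44- sample had the highest sum. Of genes of the interstitial cells of Cajal, which like mast cells carry KIT, Ano1 (-0.09) and Etv1 (0.21) were tested and neither passed. Of melanocyte genes, another cell type with KIT, Pmel alone was tested and overlapped (0.50 ± 0.60). The part of these other cells in any difference of the mast cell genes was not tested.

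**Figure D3:**
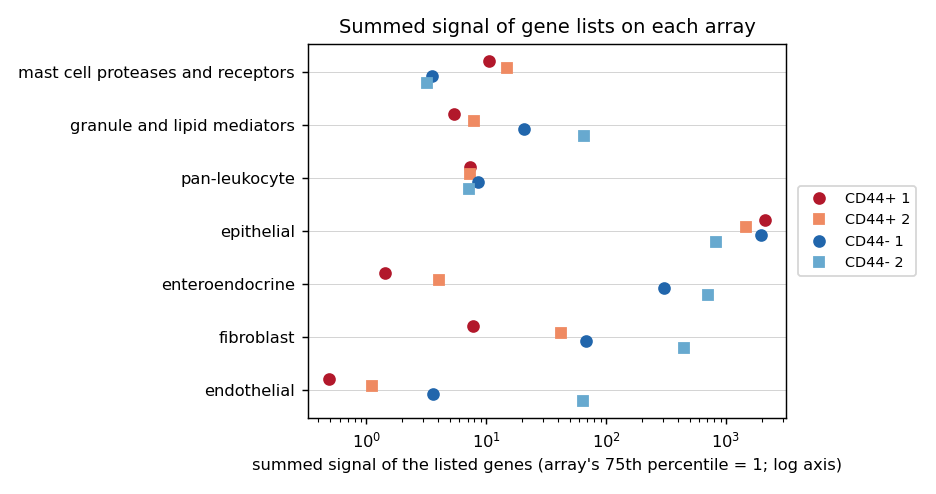
Summed scaled signal of each gene list (x axis, log scale, in multiples of the array's 75th percentile) on the 4 arrays, CD44+ and CD44-. The mast cell proteases and receptors reach 10.6 and 15.0 in CD44+ and 3.51 and 3.22 in CD44- cells, the pan-leukocyte genes overlap, and the enteroendocrine genes fall to 1.43 and 4.04 in CD44+ cells.

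**Figure D4:**
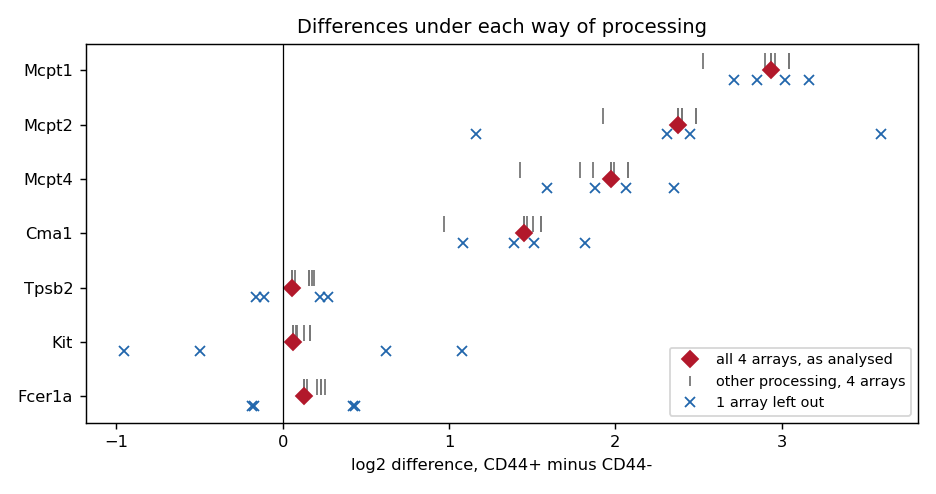
Log2 difference, CD44+ minus CD44- (x axis), of each gene with all 4 arrays as analysed (diamonds), under other processing (bars) and with 1 array left out (crosses). Mcpt1 stays between 2.53 and 3.17, Mcpt2 spreads from 1.16 to 3.59, and Tpsb2, Kit and Fcer1a lie on both sides of 0.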

How the data were processed

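RNA was measured in 4 samples, 2 Lin- CD44+ and 2 Lin- CD44-, each on its own one-colour array. The authors deposited scanner tables with the processed signal, a linear intensity after background subtraction, per the file headers, together with software flags for outlier and dim spots. Per the file headers Feature Extraction 10.1.1.1 wrote them, while the submitters' processing notes name 9.5. The authors' deposited value table holds a linear ratio of each probe to its median over the arrays. All 10728 bright probes compared had a median within 0.001 of 1. Up to a constant per array, differences between arrays matched the scanner values with an SD of 0.00161. Its column medians were 0.853, 0.989, 0.928 and 0.739. The exact scaling step stays unknown, but group differences lay close to those after scaling each array to its median (Mcpt1 3.0419 against 3.0437). These 2 alternatives are near copies, and tallies of alternatives count both. All 4 arrays lay on 1 slide and were scanned as 1 batch.

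Control spots and outlier spots (109 to 133 per array) were left out, spots of a probe were averaged, and each array's 75th percentile was subtracted from the log2 processed signals. Accessions were matched to RefSeq genes, which named 24375 of 41174 probes; 14 probes with no usable spot on an array were dropped. A probe was tested if well above background on both arrays of a group, and each gene is its brightest probe. Groups were compared with limma 3.58.1 (R 4.3.3, lmFit and eBayes, no covariates, 2 residual degrees of freedom), adjusted by Benjamini-Hochberg over 21045 genes; under 0.05 was called. The script was tested on simulated data. A gene not well above background in 1 group has a lower limit as its fold, set against the dim group at its own signal or, where that is lower, at the dimmest detected signal of the array. Normexp with an offset of 50 was an alternative. These lower limits hold only for the processing as analysed: with normexp, Cd53 and Tslp differed by less than theirs. The number of arrays limits the precision.

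The genes and lists were chosen with earlier results of these data known. The genes named were all 10 of the set with every probe, up to 4 tested genes of each other list with the smallest adjusted p and every called one, a fixed set (Cd44, Ptprc, Ms4a2, Fcer1g, Il1rl1, Gata2, Hdc, Kitl, Srgn), and the 6 genes nearest to Mcpt1 and to Kit. Some genes picked by that rule are left out, and some other list genes were named after their values were seen.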

Additional observations from a re-analysis of the deposited data

How the results depend on the processing

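Called genes numbered 84; they were 748 after scaling to the median, 6 with quantile normalization, 540 with normexp, 753 from the authors' value table, 24 without the filter and 130 with a trended variance. Leaving out 1 sample gave 2 to 1590, where the lone sample is assumed to vary like the others. The replicate block gave 1829. Nothing in the labels says that their numbers pair samples, so the main fit has no block. The deviations of the 2 pairs that share a number correlated at 0.347. Whether samples of the same number share a source was not tested. The median of the 7 genes in the fit was 1.45, 0.97 with normexp, and 1.08 to 1.82 without single samples. Mcpt1 stayed above 0 in all 14 alternatives (2.53 to 3.17) and lost its call with quantile normalization (adjusted p 0.123), without the filter (0.190), and without either CD44+ sample. Leaving out single samples turned the sign of Tpsb2 (-0.16 to 0.27), Kit (-0.96 to 1.08) and Fcer1a (-0.18 to 0.44). The cause of these changes was not tested. The 75th percentile over spots (112 called) was added after seeing the data. A slide or scan block could not be fitted, since all arrays share 1 of each. Amounts below the detection limit of the arrays stay unknown.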
